A study of Mus musculus with 22 samples.

Results

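The comparison described here is that of FE1 cells given 100 µg/ml of Mitsui7 for 24 h with FE1 cells given 0 µg/ml. It rests on 11 of the 22 arrays of the series, the 6 arrays whose titles give the high dose and the 5 control arrays. FE1 is a lung epithelial line derived from the MutaMouse, a mouse that carries a bacterial reporter transgene in all its cells, and Mitsui7 is a preparation of multi-walled carbon nanotubes. Every group therefore has the transgene and the same line, and all cells grew in medium with serum and murine epidermal growth factor. The other arrays, 6 at 12.5 µg/ml (low dose) and 5 at 25 µg/ml (medium dose), entered the same model and are used here where the high dose is set beside them. RNA of each sample was labelled red (Cy5) and hybridised with a commercial pool of mouse RNA in green (Cy3), so each value below is a log2 ratio of sample to reference after loess normalisation. Per the labels, 3 exposures were made at each dose on an experiment day. Nothing assigns an array to a day or an exposure, so how many arrays of a group are independent is not known, and p-values measure only the spread between these arrays, whose number limits the precision. Equal amounts of RNA were labelled, and fewer cells of a type and less RNA per cell cannot be told apart.

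Fibres too long and rigid for a cell to engulf are known to disturb its membranes, and cells meet stress of many kinds with shared programmes. The integrated stress response slows protein synthesis and, through the transcription factors ATF4 and CHOP, raises genes for amino acid supply; AP-1 factors downstream of the kinase ERK raise genes of early growth signalling and of matrix degradation; SREBP factors set the genes of cholesterol and fatty acid synthesis by the sterol level of the endoplasmic reticulum (ER).

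The labelled cell type was set against marker genes. Of 8 epithelial markers 2, Krt7 and Krt18, were well above background on all control arrays. Krt7, Krt18, Krt8 and Krt5 were each detected on 5 control and 6 high dose arrays. Krt19 was detected on 4 and 6, and Cldn4 on 4 and 4. Cdh1, the adhesion molecule that defines epithelia, was detected on 0 of the 11 arrays, and Epcam, another, on 2 control and 3 high dose arrays and well above background on 0. All 7 mesenchymal markers were well above background on all control arrays. The linear ratios of the macrophage markers summed to 1.74 to 2.4 per control array and 1.73 to 2.52 per high dose array, and those of the endothelial markers to 4.58 to 5.2 and 4.43 to 5.12, with 0 of these markers called by limma. Such sums add ratios of different probes, some of them at background (2 of the 5 endothelial markers were well above it on no array), so they do not measure an amount of a cell type. Control replicate 5 stood apart: it had 23688 detected probes, against 24508 to 39139 on the other control arrays, and the lowest median correlation with its own group, 0.773.

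The question was which transcripts differed at the highest dose. To be called, a probe needed a limma adjusted p of 0.05 or less, a change of 1.5-fold or more, and signal above the negative controls (detection) on at least 4 control or 4 high dose arrays. Of 32283 detected probes 2448 were called (7.58%), with 1078 increases (3.34%) and 1370 decreases (4.24%). Of the called probes 2333 passed the detection limit in both groups. Called increases had a median log2 change of 0.78 and called decreases one of -0.84, beside a median of 0.01 over all detected probes. The change was at least 2-fold for 714 called probes (256 higher, 458 lower) and at least 4-fold for 63 (21 higher, 42 lower). Slide-adjusted values of the 2 groups did not overlap for 2180 of the called probes (89.1%) and for 4570 of all detected probes (14.2%). Of 2188 called probes with a value for both groups on each of the 4 slides that held both, 2127 changed in the same direction on every slide. These probes were called from the same arrays, so this is no independent check. The share over all detected probes was not counted. Without control replicate 5 the count was 2521. The share of increases depended on the scaling: 44% of calls were increases after loess, and 29.1% (382 of 1314) when each array was instead centred on its median. With the scanner's own log ratio it was 50.8% of 3051.

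Genes are described below by the probe with the highest Cy5 signal. Of 14027 detected genes with a symbol 767 were called higher (5.47%) and 904 lower (6.44%), with a median change of 0.01. Among 3514 genes with several detected probes, 451 were called by their brightest probe and 0 had probes called in opposite directions. Genes called by a dimmer probe alone are not among the 451. All detected probes were called alike in 176 of the 451, so most calls of such genes rest on part of their probes. Probes that carry a genomic interval of a long non-coding RNA in place of a gene were called in 165 of 7382 cases (2.24%), 63 higher and 102 lower. Gene lists were written for 54 pathways and families, and 1002 of their 1125 genes were detected. The counts of each list are set against the 11.9% of all detected genes that were called.

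The largest changes named first are those of called genes that passed the detection limit in both groups and did not overlap after slide adjustment. Mmp13, a collagenase, read -0.26, -0.07, -0.22, 0.11 and 0.07 in the controls and 3.14 to 4.09 (median 3.33) at the high dose. Gsto2, an omega class glutathione transferase with reductase activity, read -1.22, -1.08, -1.45, -0.75 and -1.16 in the controls and 1.86 to 2.74 (median 2.27) at the high dose. Car6, a secreted carbonic anhydrase, read -3.5, -2.49, -2.8, -2.07 and -2.18 in the controls and -0.61 to 1.32 (median 0.67) at the high dose. For each of these genes the lowest high dose array lay above the highest control array, which the condition of no overlap largely ensured. The log2 changes were 3.52 ± 0.18 (SE) for Mmp13, 3.46 ± 0.23 for Gsto2 and 3.25 ± 0.45 for Car6, with limma adjusted p = 2.5e-10, 5.27e-09 and 4.98e-05. The Car6 signal exceeded background clearly on 2 of 5 control arrays and all 6 high dose arrays. Prl2c5 (3.24 ± 0.15) and Prl2c1 (3.07 ± 0.13) belong to the placental prolactin family, whose near-identical copies a probe may not separate. Il1rl1, the receptor of interleukin 33, rose by 2.64 ± 0.22 from control values of -4.58 to -3.77. The angiopoietin-like factor Angptl6 rose by 2.24 ± 0.2.

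Decreases of the same kind were led by that of Mgp, an inhibitor of calcification and of bone morphogenetic proteins. It read 1.37, 1.55, 1.45, 1.33 and 1.08 in the controls and -3.75 to -2.2 (median -3.08) at the high dose. That is a 23.6-fold decrease (log2 change -4.56 ± 0.42, limma adjusted p = 3.67e-07). Il33, the alarmin bound by the product of Il1rl1, read 1.75, 0.67, 0.86, 0.52 and 0.06 in the controls and -2.92 to -1.67 (median -2.29) at the high dose, a change of -3.15 ± 0.3. So the ligand fell 8.87-fold and its receptor rose 6.22-fold. Lack of overlap between the groups was a condition for naming both here. Further decreases were those of Olfml3 (-2.97 ± 0.33), Gas1 (-2.96 ± 0.22, from 3 control and 4 high dose arrays with a value), transferrin (Trf, -2.73 ± 0.28) and the laminin chain Lama1 (-2.7 ± 0.27). Nkain4 (-2.34 ± 0.13), the phosphatase subunit Ppp2r2b (-2.33 ± 0.16) and the glutathione transferase Gstt1 (-2.31 ± 0.11) followed. Probes of Sprr2a2, a cornified envelope gene, disagreed: the called probe changed by -2.4 ± 0.24 and the brighter one by -0.13. Lama1 was well above background on 2 of 6 high dose arrays.

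**Figure D1:**
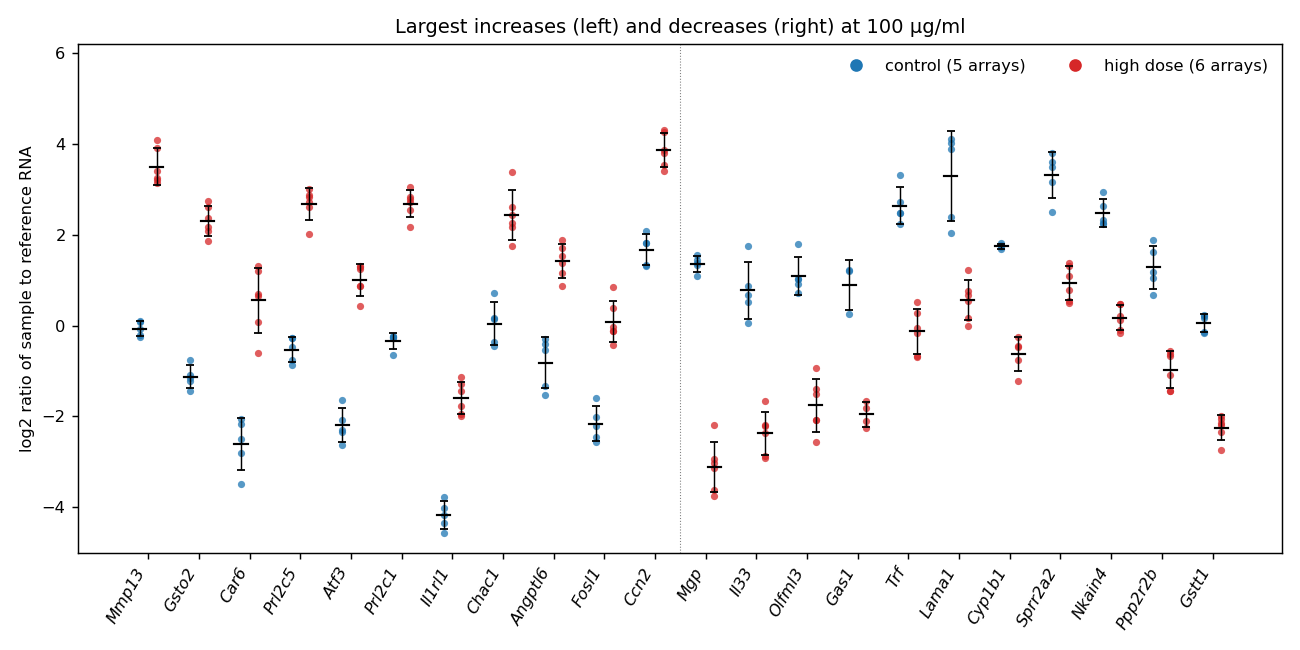
Log2 ratio of sample to reference RNA (y axis) for 11 of the 12 genes with the largest increases and 11 of the 12 with the largest decreases among called genes detected in both groups. Each of the 5 control and 6 high dose arrays with a value has a point, and bars give the mean and SD of the arrays shown. Gas1 has points for 3 control and 4 high dose arrays, and Cyp1b1 for 4 and 5. Lack of overlap after slide adjustment was a condition for choosing these genes, so the lack of overlap drawn here is largely set by that choice. Lama1 shows the widest spread of the controls, from 2.04 to 4.1.

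Of 24 detected targets of ATF4 and CHOP 13 were called higher, 0 lower and 11 not called (54.2%, against 11.9% of all genes), with a median change of 0.71, and all 24 changes were above 0. Atf3, a transcription factor induced by ATF4, read -2.63, -2.09, -2.3, -2.35 and -1.63 in the controls and 0.43 to 1.31 (median 1.05) at the high dose, an 8.97-fold rise (log2 change 3.17 ± 0.16, limma adjusted p = 3.31e-10). Chac1, which degrades glutathione, rose by 2.37 ± 0.18. Its control values ran from -0.45 to 0.71 and its high dose values from 1.74 to 3.39. Trib3, a pseudokinase that dampens the response, rose by 2.09 ± 0.22 and Ddit3, which encodes CHOP, by 1.9 ± 0.12. Atf4 itself, controlled mainly in translation, rose by 0.79 ± 0.15 (limma adjusted p = 0.00239).

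Among the 11 not called were the serine synthesis genes Phgdh (0.24) and Psat1 (0.39), the amino acid transporter gene Slc38a2 (0.09) and the mTOR inhibitor gene Ddit4 (0.08). With median centring 8 were called higher in place of 13, with a median change of 0.67, and without control replicate 5 there were 15.

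The aminoacyl-tRNA synthetases, which charge tRNA and in part are ATF4 targets, had 7 of 20 called higher and 0 lower (35%), with a median of 0.44. The seryl enzyme Sars rose by 0.98 ± 0.13, from -1.04 to -0.04 in the controls to 0.05 to 1.06 at the high dose. Tars rose by 0.9 ± 0.09, Rars by 0.78 ± 0.11 and Lars by 0.77 ± 0.19. Gars (0.69 ± 0.19, limma adjusted p = 0.028) passed in 17 of 35 settings. With median centring 1 was called higher in place of 7, with the median at 0.4.

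Promoters were searched on both strands for the core of the amino acid response element, TGATGNAA, in the 250 bases before each RefSeq transcription start (GRCm38.p6). A gene counted as holding the motif when any of its starts had it. It was present in 5 of 13 called members (38.5%) and 6 of 23 members in all (26.1%), beside 3.91% of 27025 genes, 2.67% of detected genes, 4.15% of genes called higher and 2.54% of genes called lower. The 5 promoters are printed because they belong to the list members that rose, 5′ to 3′ in the direction of the gene, with the match in capitals. A match is a run of letters and not a shown binding site.
Atf3, chr1:191183334-191183583, minus strand: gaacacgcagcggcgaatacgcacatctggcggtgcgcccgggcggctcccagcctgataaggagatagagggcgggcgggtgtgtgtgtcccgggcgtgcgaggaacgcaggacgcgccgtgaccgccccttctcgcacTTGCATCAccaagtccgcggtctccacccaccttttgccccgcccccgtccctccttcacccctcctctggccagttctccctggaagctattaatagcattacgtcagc
Chac1, chr2:119350992-119351241, plus strand: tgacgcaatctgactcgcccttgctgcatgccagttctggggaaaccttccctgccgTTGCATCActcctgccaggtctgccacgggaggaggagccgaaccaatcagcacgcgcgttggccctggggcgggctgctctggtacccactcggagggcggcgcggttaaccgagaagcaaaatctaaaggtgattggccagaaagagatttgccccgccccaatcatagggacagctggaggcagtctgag
Nupr1, chr7:126625471-126625720, minus strand: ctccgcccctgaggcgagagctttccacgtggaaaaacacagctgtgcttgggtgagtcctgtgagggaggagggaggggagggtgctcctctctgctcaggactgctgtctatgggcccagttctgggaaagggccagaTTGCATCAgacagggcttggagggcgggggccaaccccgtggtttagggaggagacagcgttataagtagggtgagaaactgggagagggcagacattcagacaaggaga
Asns, chr6:7693210-7693459, minus strand: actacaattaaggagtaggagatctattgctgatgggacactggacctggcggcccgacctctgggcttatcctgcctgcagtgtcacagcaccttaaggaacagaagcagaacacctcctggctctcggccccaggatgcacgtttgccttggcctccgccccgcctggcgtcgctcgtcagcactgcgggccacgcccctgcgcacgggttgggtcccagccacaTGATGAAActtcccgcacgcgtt
Slc7a11, chr3:50443614-50443863, minus strand: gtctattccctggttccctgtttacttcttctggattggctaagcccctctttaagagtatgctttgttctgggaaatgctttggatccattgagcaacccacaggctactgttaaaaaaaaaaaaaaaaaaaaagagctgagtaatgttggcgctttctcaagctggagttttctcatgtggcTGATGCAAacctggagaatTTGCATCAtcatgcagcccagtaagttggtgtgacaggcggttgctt
The match lay 110 bases before the start in Atf3 and in Nupr1, 193 in Chac1 and 23 in Asns. Slc7a11, the cystine transporter, held 2 matches. Nupr1, a small chromatin protein of the stress response, rose by 1.24, Asns, which makes asparagine, by 1.08 and Slc7a11 by 0.68.

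AP-1 subunits and other immediate early genes had 10 of 18 called higher and 0 lower (55.6%), with a median of 0.81. Fosl1, which encodes the subunit FRA1, read -2.56, -1.59, -2.22, -2.45 and -2.01 in the controls and -0.44 to 0.84 (median -0.08) at the high dose, a rise of 2.23 ± 0.31. Jun rose by 1.58 ± 0.12, and each of its high dose values (-1.32 to -0.75) was above each control value (-2.85 to -2.31). Klf4 rose by 1.42 ± 0.14 and Nr4a2, an orphan nuclear receptor, by 1.3 ± 0.14. Klf6, the member with the highest signal, was at 0.7 ± 0.22 and was not called (limma adjusted p = 0.0597).

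Feedback inhibitors of ERK, whose transcripts follow ERK activity, had 9 of 18 called higher and 0 lower, with a median of 0.58. The phosphatases Dusp4 (1.21 ± 0.14), Dusp6 (1.03 ± 0.13), Dusp1 (1.02 ± 0.17) and Dusp16 (1.01 ± 0.15) led the list. With median centring 4 genes of the list were called higher in place of 9. Of 11 detected genes of the EGF receptor and its ligands 3 were called higher. These were the receptor inhibitor Errfi1 (1.41 ± 0.16) and the ligands Ereg (1.19 ± 0.17) and Hbegf (0.99 ± 0.11), while the receptor Egfr was at -0.3 ± 0.16 and not called. Of the 3 Egfr probes another, dimmer one was called lower. Control and high dose values did not overlap for Ereg, at -1.55 to -1.06 and -0.68 to 0.19.

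Matrix proteases and their inhibitors moved in both directions, 7 of 23 higher and 4 lower, with a median of -0.03. Besides Mmp13, the stromelysins Mmp10 and Mmp3 rose. Mmp10 read 0.25, 0.34, 0.02, -0.19 and -0.05 in the controls and 2.58 to 4.03 (median 3.43) at the high dose, a rise with limma adjusted p = 2.99e-08. Its probe passed the detection limit at the high dose and not in the controls, and the change ran from 2.48 to 4.37 over 35 settings. Mmp3 read -1.66, -1.72, -2.53, -2.86 and -1.97 in the controls and -1.25 to 0.16 (median -0.33) at the high dose, a 3.41-fold rise. Mmp2, the gelatinase of resting stroma, was lower by -0.83 ± 0.24 (limma adjusted p = 0.0348), a call that passed in 18 of 35 settings. Timp3, the inhibitor with the highest signal, was at -0.23 ± 0.13 and not called. Mmp13 and Mmp10 were well above background on 3 of 5 control arrays and on all 6 high dose arrays, so part of their control values are near the floor.

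The AP-1 site, TGANTCA, was present in the 250 bases before the start of Mmp13, Mmp10 and Mmp3, which are neighbours on chromosome 9 and were chosen for printing after their values were seen. It was present in 9.14% of genes called higher, 6.57% of genes called lower, 6.01% of detected genes and 7.82% of all genes, and in 0 of the 9 called members of the immediate early list with a promoter. Capitals mark the match, which lay 35, 63 and 46 bases before the start.
Mmp13, chr9:7272264-7272513, plus strand: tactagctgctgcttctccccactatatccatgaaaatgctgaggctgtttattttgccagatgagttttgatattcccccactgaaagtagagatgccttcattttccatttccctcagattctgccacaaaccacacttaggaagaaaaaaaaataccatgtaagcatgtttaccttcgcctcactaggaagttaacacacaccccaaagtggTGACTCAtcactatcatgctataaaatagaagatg
Mmp10, chr9:7502092-7502341, plus strand: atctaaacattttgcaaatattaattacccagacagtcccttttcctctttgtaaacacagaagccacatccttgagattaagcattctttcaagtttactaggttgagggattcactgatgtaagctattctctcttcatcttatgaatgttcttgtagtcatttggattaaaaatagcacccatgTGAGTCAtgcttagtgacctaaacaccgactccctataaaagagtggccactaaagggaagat
Mmp3, chr9:7445572-7445821, plus strand: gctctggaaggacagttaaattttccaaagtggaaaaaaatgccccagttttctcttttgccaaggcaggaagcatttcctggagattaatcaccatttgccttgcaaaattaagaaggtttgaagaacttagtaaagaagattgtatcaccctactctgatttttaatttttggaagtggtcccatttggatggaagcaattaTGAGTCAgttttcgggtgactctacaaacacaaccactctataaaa

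Targets of YAP, the factor that reads cell shape and contact, had 11 of 19 called higher and 0 lower (57.9%), with a median of 0.64. Ccn2, a matricellular growth factor, read 1.34, 1.81, 2.08, 1.82 and 1.3 in the controls and 3.41 to 4.31 (median 3.84) at the high dose, a 4.3-fold rise (limma adjusted p = 3.31e-08). Ankrd1 rose by 1.86 ± 0.15, tissue factor (F3) by 0.94 ± 0.11 and the kinase Lats2 by 0.93 ± 0.1, the last from 4 control arrays with a value. With median centring 3 were called higher in place of 11, with the median at 0.58.

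Among p53 targets 7 of 20 were called higher and 2 lower, with a median of 0.38. Plk2 rose by 1.56 ± 0.25, the stress cytokine Gdf15 by 1.4 ± 0.15 and Trp53inp1 by 1.13 ± 0.17. Gdf15 read -3.49 to -2.21 in the controls and -1.72 to -1.3 at the high dose, without overlap. The death receptor Fas went the other way, from 1.12 to 2.02 in the controls to -0.3 to 0.71 at the high dose (change -1.13 ± 0.16). Apoptosis regulators had 0 of 18 called higher and 2 lower.

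Ribosome biogenesis, the making of ribosomal RNA and its assembly with proteins in the nucleolus, had 14 of 29 genes called higher and 0 lower (48.3%), and 28 of 29 changes were above 0, with a median of 0.62. Nop56, a core protein of the small nucleolar particles, read 1.57, 1.02, 0.85, 0.91 and 0.73 in the controls and 2 to 2.67 (median 2.31) at the high dose, a rise of 1.35 ± 0.16. Nop2 rose by 1.22 ± 0.12, the helicase Ddx21 by 1.14 ± 0.15 and Wdr43 by 1.13 ± 0.11. Npm1, the member with the highest signal, was at 0.4 ± 0.15 and not called. With median centring 5 were called higher in place of 14, with the median at 0.58.

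Myc, whose product drives ribosome genes, read -1.48, -0.66, -0.86, -0.49 and -0.39 in the controls and 0.26 to 1.21 (median 0.79) at the high dose (change 1.45 ± 0.16). It was the single call upwards among 18 G1 cyclins and inhibitors, beside 5 decreases. Those included the CDK inhibitors Cdkn2d (-1.52 ± 0.15) and Cdkn2c (-1.19 ± 0.2). Rbl2, a pocket protein, was lower by -0.81 ± 0.23, a call that passed in 12 of 35 settings. DNA replication genes had 2 of 32 called higher and 0 lower.

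Sterol synthesis was the list with the largest share of calls of the 54, 18 of 20 lower and 0 higher (90%), with a median change of -1.01. Tm7sf2, a sterol reductase, read 1.09, 0.5, 0.94, 1.15 and 0.97 in the controls and -0.93 to -0.34 (median -0.74) at the high dose, a 3.04-fold fall (limma adjusted p = 1.2e-08). Mvd, of the mevalonate pathway, read 1.08, 1.55, 1.58, 1.45 and 1.92 in the controls and -0.27 to 0.43 (median 0.01) at the high dose. Groups did not overlap for these genes, nor for Hmgcs1, the entry enzyme (-1.24 ± 0.2), or Fdps, the member with the highest signal (-1.09 ± 0.13). Lss, which closes the sterol rings, was lower by -1.31 ± 0.25, with values of 0.95 to 2.47 in the controls and 0.02 to 1.14 at the high dose that overlap. The members that were not called, named after their values were seen, were Cyp51 (-0.5 ± 0.12, under 1.5-fold) and Msmo1 (-0.89 ± 0.32, limma adjusted p = 0.12). With median centring 12 of 20 were called and the median was -1.04, and on slide 1 alone it was -1.1.

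The list's median was -0.54 at the low and -0.77 at the medium dose against the same controls, with 5 and 13 genes called. Genes that pass at the high dose and at neither other dose numbered 5, among them Sqle, which makes squalene epoxide (-1.15 ± 0.29, with -0.74 at the low and -0.78 at the medium dose). Its control values were 1.48, 1.35, 1.45, 1.13 and 2.37, and its high dose values ran from -0.04 to 0.88.

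The core of the sterol regulatory element, TCACNCCAC, was present in 1 of 13 called members with a promoter (7.69%), Hmgcs1, and in 1.22% of all genes and of detected genes. The promoter of Hmgcs1 is shown because this gene also differed between the high and the low dose. The match lies 137 bases before the start.
Hmgcs1, chr13:119690101-119690350, plus strand: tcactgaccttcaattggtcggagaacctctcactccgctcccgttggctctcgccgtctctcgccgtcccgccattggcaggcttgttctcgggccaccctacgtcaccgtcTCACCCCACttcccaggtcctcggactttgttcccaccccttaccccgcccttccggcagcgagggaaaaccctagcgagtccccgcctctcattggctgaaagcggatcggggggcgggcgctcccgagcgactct

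Genes of SREBP control and cholesterol traffic had 4 of 16 called lower and 0 higher, with a median of -0.27. The cholesterol carrier Stard4 was lower by -0.97 ± 0.12, the SREBP anchor Insig1 by -0.91 ± 0.16 and the ubiquitin ligase Mylip by -0.84 ± 0.14. Stard4 read 1.48 to 2.27 in the controls and 0.35 to 0.98 at the high dose, without overlap.

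Fatty acid synthesis had 7 of 14 called lower and 0 higher, with a median of -0.57. The desaturases Scd2 (-1.58 ± 0.28) and Scd1 (-1.09 ± 0.13), the acetate activating enzyme Acss2 (-1.24 ± 0.11) and the elongase Elovl6 (-0.97 ± 0.13) led it. Scd2 varied within the high dose, from -0.82 to 0.73 with a median of -0.65. Fatty acid oxidation, the opposite pathway, also fell, 7 of 19 lower and 0 higher, with a median of -0.47. Echs1 (-1.09 ± 0.14), Acadm (-0.92 ± 0.1), Acaa2 (-0.9 ± 0.09) and Hadh (-0.84 ± 0.12) catalyse steps of the mitochondrial cycle. Acadm read -0.96 to -0.57 in the controls and -1.81 to -1.35 at the high dose.

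**Figure D2:**
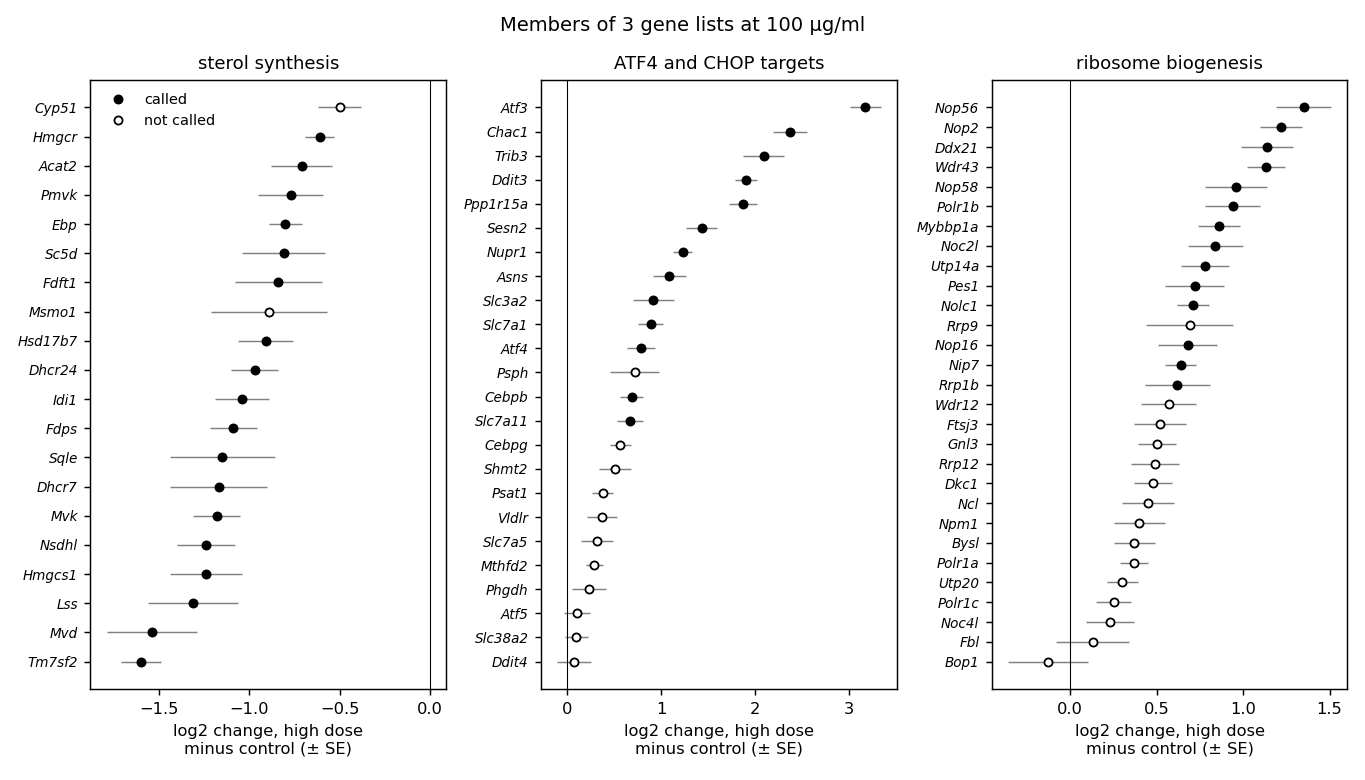
Log2 change, high dose minus control (x axis), with its SE for each detected gene of the lists of sterol synthesis, ATF4 and CHOP targets and ribosome biogenesis, with filled points for called genes. All 20 sterol genes lie below 0, all 24 ATF4 and CHOP targets above 0 and 28 of 29 ribosome biogenesis genes above 0.

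Glutathione transferases, which conjugate electrophiles, had 2 of 21 called higher and 11 lower, with a median of -0.63. Those higher were the omega class, Gsto2 (above) and Gsto1, which read 0.19 to 0.61 in the controls and 2.15 to 2.86 at the high dose (change 1.97 ± 0.12). Among those lower were Gstt1 and the microsomal Mgst1, which read -0.48 to 0.33 in the controls and -2.08 to -1.72 at the high dose (change -1.89 ± 0.12). Targets of NRF2, the transcription factor of the response to electrophiles, had 5 of 25 called higher and 0 lower, with a median of 0.06. The autophagy adaptor Sqstm1 rose by 1.58 ± 0.2, the haem oxygenase Hmox1 by 1.28 ± 0.19, the esterase Esd by 1.1 ± 0.14 and the thioredoxin reductase Txnrd1 by 1.08 ± 0.11. Hmox1 read -1.94 to -1.19 in the controls and -0.72 to 0.57 at the high dose. Ftl1, the member with the highest signal, was at 0.56 ± 0.1, under 1.5-fold. Without control replicate 5 the NRF2 list had 9 called higher and 1 lower. The antioxidant response element core, TGACNNNGC, was in 1 of 4 called members with a promoter and in 11.5% of all genes.

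The aryl hydrocarbon receptor Ahr and its target Cyp1b1, an oxidase of aromatic compounds, fell, and 0 of 8 genes of their list were called higher (1 without control replicate 5). Of the 8 changes 3 were above 0. Ahr read 2.49, 1.33, 1.98, 1.86 and 2.09 in the controls and -0.17 to 0.8 (median 0.25) at the high dose (change -1.65 ± 0.19). Cyp1b1 read 1.69, 1.72, 1.77 and 1.81 on 4 control arrays and -1.23 to -0.25 on 5 high dose arrays (change -2.54 ± 0.26, limma adjusted p = 5.53e-06). The xenobiotic response element core, GCGTG, was in the promoter of Cyp1b1 and in 30.9% of all genes. Aldehyde dehydrogenases had 7 of 18 lower and 0 higher, led by Aldh1a7 (-1.7 ± 0.13) and Aldh4a1 (-1 ± 0.14). The metallothioneins Mt1 (-1.21 ± 0.17) and Mt2 (-0.99 ± 0.24), transferrin and the copper oxidase Cp (-1.01 ± 0.2) made up the 4 decreases among 13 genes of metal handling, with 0 increases. Of 20 peroxide and superoxide enzymes 2 were called higher and 2 lower.

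ER chaperones and folding enzymes had 1 of 20 called higher and 10 lower (median -0.59), beside the rise of CHOP. Calr, a calcium binding chaperone, read -0.24, 0.62, 0.45, 0.6 and 0.69 in the controls and -1.7 to -0.05 (median -0.85) at the high dose. It fell by 1.41 ± 0.24, Pdia6 by 1.28 ± 0.11, P4hb by 1.15 ± 0.26 and Dnajc3 by 1.15 ± 0.11 on the log2 scale. Atf6, a sensor of unfolded protein, was the call upwards (0.69 ± 0.12). Hspa5, which encodes the chaperone BiP, was at -0.33 ± 0.1 and not called. Hypoxia targets had 2 of 14 higher and 6 lower, with a median of -0.36. The prolyl hydroxylases of collagen P4ha2 (-1.31 ± 0.23) and P4ha1 (-1.18 ± 0.15) and the kinase Pdk1 (-1.13 ± 0.17) were lower, and Ndrg1 was higher, at -3.87 to -3.15 in the controls and -2.13 to -1.8 at the high dose.

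Genes of the extracellular matrix fell in each list of structural proteins. Of 18 collagens 11 were called lower and 0 higher (61.1%, median -0.79), of 14 proteoglycans and matricellular proteins 9 and 0 (median -0.83), and of 20 genes of elastic fibres and crosslinking 10 and 0 (median -0.67). Col3a1 read 0.5, 0.62, 1.11, 1.32 and 2 in the controls and -1.16 to 0.2 (median -0.49) at the high dose, a 3.25-fold fall (limma adjusted p = 2.22e-07). Col6a2 (-1.96 ± 0.44), Col6a1 (-1.57 ± 0.21) and Col1a2 (-1.52 ± 0.16) fell as well. The small proteoglycans Dcn (-2.27 ± 0.34), Ogn (-2.04 ± 0.32) and Fmod (-1.36 ± 0.18) fell, while Sparc, of the highest signal, ranged from 0.42 to 2.68 at the high dose and was not called by its brighter probe. The other probe of Sparc was called lower. Efemp1 (-1.43 ± 0.11), Emilin1 (-1.06 ± 0.24), the crosslinking enzyme Tgm2 (-0.97 ± 0.15) and the fibrillin Fbn1 (-0.95 ± 0.08) led the elastic fibre genes.

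Col1a1, Col1a2, Col3a1, Pdgfra and Dcn are also mesenchymal markers, and these 5 of the 7 were called lower, 0 higher. The linear ratios of the 7 markers summed to 10.8 to 13.6 per control array and to 3.99 to 6.59 per high dose array. Vim, another of the 7, was at 0.14 ± 0.21 and not called. The sum of 5 alveolar type 1 markers was 9.11 to 10.4 in the controls and 4.94 to 5.1 at the high dose. The fall of that sum is largely that of 1 gene, Hopx, which was called lower (mean 2.33 in the controls, 0.32 at the high dose). Pdpn (0.31), Cav1 (-0.31) and Aqp5 (-0.37) were not called, and Ager (-0.5) did not pass the detection limit. The sum of 6 type 2 markers was 3.89 to 6.62 in the controls and 6.72 to 8.76 at the high dose, with Lamp3 called higher. Of the type 2 markers 2 were well above background on no array, so the type 2 sum rests in part on probes without signal. The part of these markers in the matrix results was not tested.

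Basement membrane genes had 2 of 14 higher and 5 lower. Lama1, Nid2 (-1.84 ± 0.14, from 4 arrays of each group) and Lama4 (-1.32 ± 0.14) fell. Among integrins and adhesion proteins 2 of 18 were higher and 4 lower. The collagen receptors Itga11 (-2.11 ± 0.16) and Itga1 (-1.22 ± 0.15) fell, whereas the laminin receptor Itga6 (0.92 ± 0.19) and the adhesion protein Zyx (0.88 ± 0.09) rose. Itga11 read 0.17 to 1.23 in the controls and -1.81 to -1.15 at the high dose. Itga1 was well above background on 4 of 5 control and 2 of 6 high dose arrays, and its change ran from -2.6 to -0.96 over 35 settings.

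Of 18 genes of bone morphogenetic protein signalling 7 were lower and 2 higher (median -0.36). The ID proteins, which block differentiation factors and are direct targets of the pathway, fell: Id1 by 1.83 ± 0.14, Id2 by 1.67 ± 0.18 and Id3 by 1.56 ± 0.21 on the log2 scale. Id1 read -0.45, -0.18, -0.14, 0.48 and 0.38 in the controls and -2.29 to -1.43 (median -1.74) at the high dose. The secreted antagonist Grem1 rose by 1.5 ± 0.19, from -2.87 to -1.99 in the controls to -1.33 to -0.46, opposite to the antagonist Mgp. In the TGF-beta list 5 of 21 fell and 2 rose. The ligands Tgfb2 (-1.84 ± 0.11) and Tgfb3 (-1.54 ± 0.09) and the coreceptor Tgfbr3 (-1.62 ± 0.15) were lower, and the repressor Tgif1 was higher (1.47 ± 0.12). Tgfb3 was tight in both groups, 1.38 to 1.67 in the controls and -0.18 to 0.1 at the high dose. Wnt genes had 5 of 20 lower and 0 higher, led by the enhancers Rspo3 (-2.17 ± 0.2) and Rspo1 (-1.72 ± 0.31) and the receptors Fzd1 (-1.33 ± 0.14) and Fzd4 (-1.14 ± 0.2). Rspo1 ran from -1.98 to -0.52 over 35 settings.

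Cytokine genes went both ways. Chemokines had 2 of 17 higher and 6 lower, and with median centring 1 was called in each direction. Ccl5, which attracts T cells, read -4.78 to -3.06 in the controls and -2.39 to -1.77 at the high dose (change 1.81 ± 0.16). Cxcl17 (-1.73 ± 0.33), Cx3cl1 (-1.46 ± 0.14) and the monocyte attractant Ccl2 (-1 ± 0.25) were lower, as was Cxcl12 (-0.67 ± 0.16). Ccl2 overlapped between the groups, at -0.16 to 1.06 in the controls and -1.07 to -0.1 at the high dose. Its call passed in 28 of 35 settings and that of Cxcl12 in 27. Interleukins and growth cytokines had 1 of 17 higher, Il1rl1, and 5 lower, among them Il33, Il18 (-1.34 ± 0.11) and the receptor Il1r1 (-1.22 ± 0.22). Il18 read 0.42 to 0.76 in the controls and -0.9 to -0.34 at the high dose.

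Complement and acute phase genes had 7 of 16 lower and 0 higher (43.8%, median -0.89). The membrane regulator Cd55 read 4.51, 3.01, 3.63, 3.52 and 2.83 in the controls and 0.66 to 1.59 (median 1.19) at the high dose. It was lower by -2.27 ± 0.25, the proteases C1s1 by -1.8 ± 0.16 and C1ra by -1.21 ± 0.17, and the central component C3 by -1.2 ± 0.17. Interferon genes had 5 of 24 higher and 2 lower. Ifit1 rose by 2 ± 0.18 and Ifit3 by 0.82 ± 0.13, whereas the RNA sensor Ddx58 was lower by -0.81 ± 0.12. The Ifit1 signal exceeded background clearly on 1 of 5 control arrays and on 6 of 6 high dose arrays. NF-kappaB genes had 2 of 17 higher and 1 lower, and the TNF superfamily 3 of 16 and 1. Ptgs2, the inducible cyclooxygenase, read 0.73 to 1.5 in the controls and 2.12 to 3 at the high dose (change 1.48 ± 0.18), the call upwards among 12 prostaglandin genes beside 1 decrease.

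Some lists had 0 calls. By limma 0 of 15 cytosolic heat shock genes and 0 of 26 proteasome genes were called, with 5 and 6 at an unadjusted p under 0.05, and an ordinary linear model and the Cy5 signal alone also called 0. Over all 55681 probes, detected or not, 9892 had an unadjusted p under 0.05. In mitosis 0 of 26 genes were called by limma, 12 at an unadjusted p under 0.05, with 0 by the ordinary model and 1 by Cy5 alone. Of the 26 changes 20 were below 0. In the respiratory chain 0 of 25 were called by limma, 14 at an unadjusted p under 0.05, with 0 and 1 by the other methods, and 23 of 25 changes were below 0. Autophagy had 1 of 22 higher and 0 lower, and the lysosome 1 of 25 in each direction. Of the IGF and FGF genes 1 of 15 was higher and 2 lower, and of retinoid genes 0 of 14 and 1. Glycolysis had 0 of 18 higher and 3 lower, amino acid transporters 1 of 16 and 2, nucleotide synthesis 2 of 17 and 0, contractile genes 0 of 16 and 1, and epithelial junction genes 2 of 15 and 1. Angiogenic factors had 3 of 23 higher and 8 lower (47.8%, median -0.18). Clock genes had 1 of 14 and 3 (28.6%, median -0.04). Both shares lay above the 11.9% of all genes. So did those of IGF and FGF genes (20%), epithelial junction genes (20%), amino acid transporters (18.8%) and glycolysis (16.7%). The reference genes Actb (0.05 ± 0.33), Gapdh (-0.31 ± 0.15) and Hprt (0.39 ± 0.16) were not called.

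**Figure D3:**
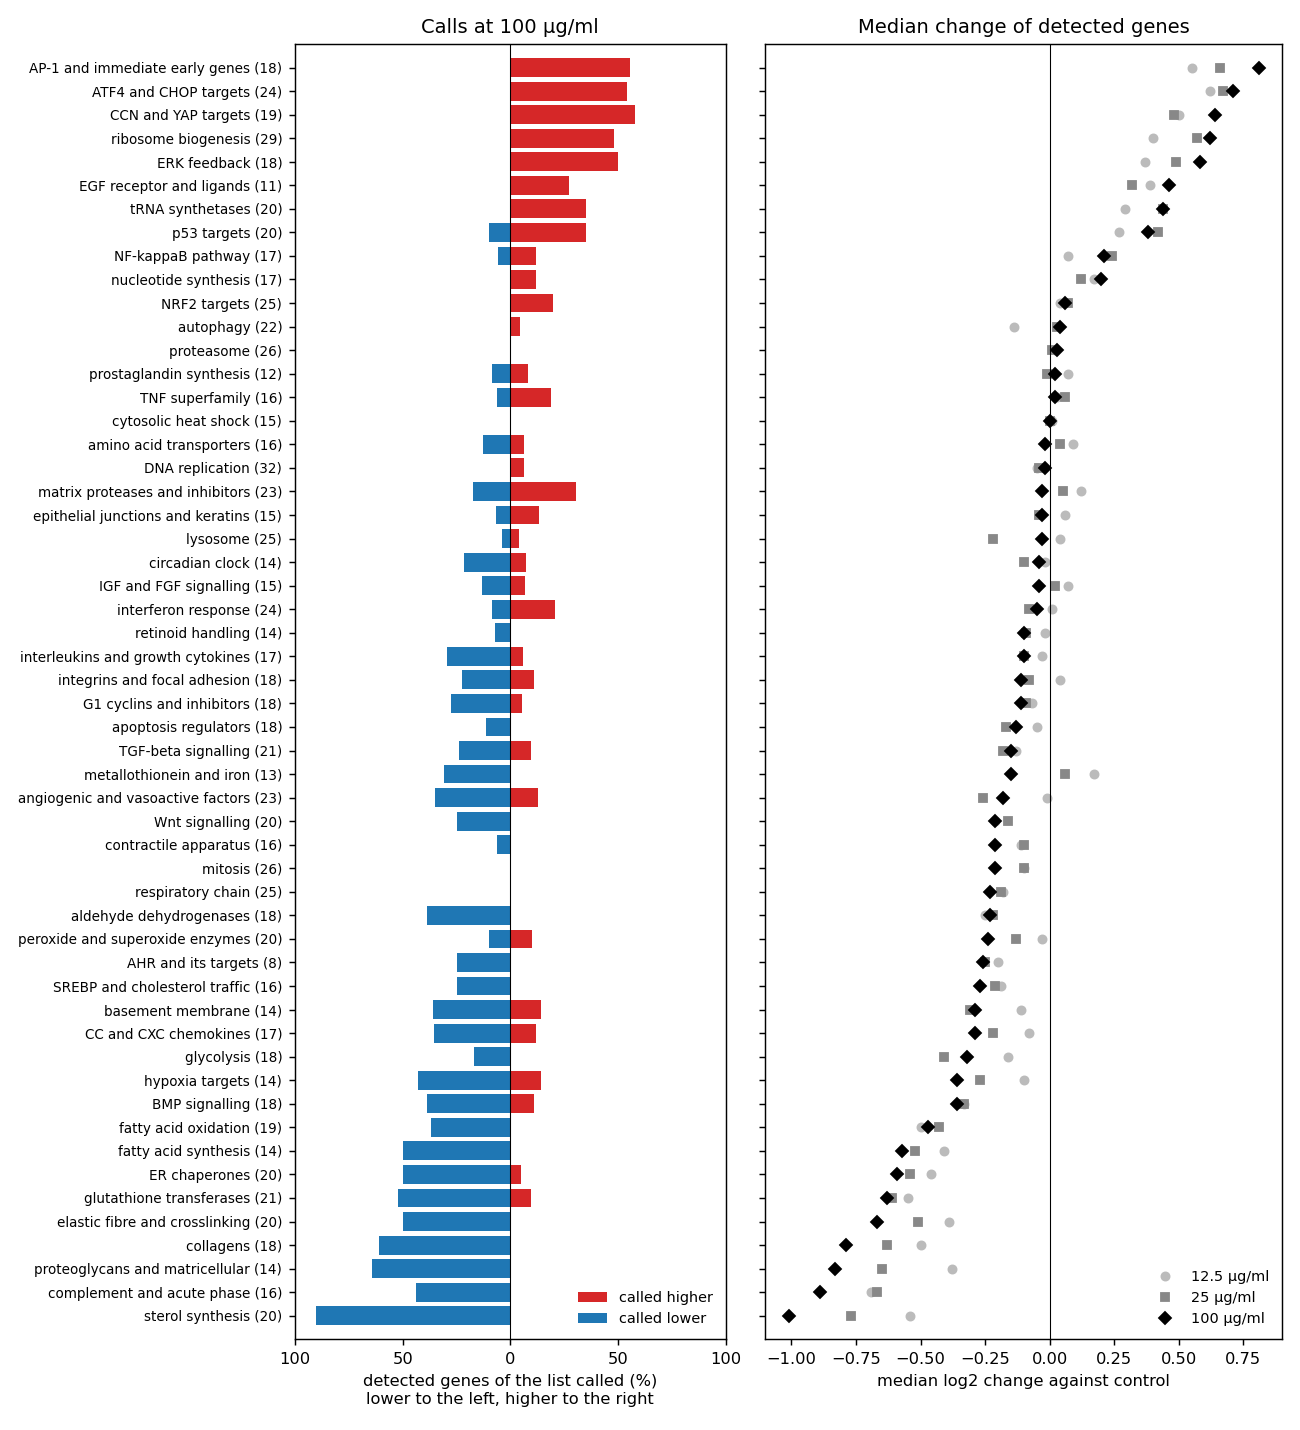
Left, percent of the detected genes of each list called lower (bars to the left) or higher (bars to the right) at the high dose, with the number of detected genes in brackets. Right, median log2 change of these genes against the shared controls at 12.5, 25 and 100 µg/ml; sterol synthesis lies lowest (90% called, median -1.01) and AP-1 and immediate early genes highest (55.6% called, median 0.81).

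Probes that passed at the high dose and at neither lower dose numbered 838 (2.6% of detected probes, 34.2% of calls), 352 higher and 486 lower. Among genes with a symbol there were 516 (3.68%), 234 higher and 282 lower. Their median size was 0.68 on the log2 scale, and the same probes had a median of 0.5 at the medium and 0.4 at the low dose, in the direction of the high dose. All 838 had the same sign at the medium dose, 9 had the opposite sign at the low dose, and 639 lay within 0.2 of the fold threshold. At the medium dose 328 passed the adjusted p and not the fold, 121 the fold and not the adjusted p, and 389 neither. After slide adjustment the groups did not overlap for 672 of the 838, beside 89.1% of all called and 14.2% of all detected probes. The 838 were picked by the same contrast of high dose with control. Passing at 1 dose is no test of a difference between doses, and the direct comparison of high with low called 11 of the 838. Which probes these are depends on the low and medium dose arrays: without low dose replicate 1 and medium dose replicate 2 the count was 741, of which 637 were among the 838.

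The largest increases among these were Slc38a7, an amino acid transporter (1.17 ± 0.27), Klf5, a factor of proliferating epithelium (1.17 ± 0.29), Vgll3, a partner of TEAD factors (1.04 ± 0.23), Bend6 (0.95 ± 0.21) and Dennd4a (0.94 ± 0.21). Itga6, Slc3a2, the heavy chain of amino acid exchangers (0.92 ± 0.22), and Uap1l1 (0.9 ± 0.21) followed. Slc38a7 read -0.74, 0.31, 0.18, 0.39 and 0.61 in the controls and 0.61 to 2.37 (median 1.38) at the high dose, with changes of 0.78 at the low and 0.72 at the medium dose. Klf5 read -2.05, -0.98, -0.65 and -0.57 on 4 control arrays and -0.17 to 0.97 (median 0.18) at the high dose, with 0.46 and 0.83 at the lower doses. The raw ranges of Slc38a7 meet at 0.61, and those of Klf5 do not overlap.

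The largest decreases were Sh2d4a (-1.24 ± 0.24), the phospholipase Plce1 (-1.21 ± 0.21), Amer1, a negative regulator of Wnt (-1.16 ± 0.32), Sqle, Mmd (-1.13 ± 0.19), Etfa, of electron transfer from fatty acids (-1.11 ± 0.25), the vesicle GTPase Rab27b (-1.1 ± 0.2) and Abhd14b (-1.07 ± 0.22). Mmd read 1.93, 1.85, 1.82 and 1.55 on 4 control arrays and 0.04 to 1.15 (median 0.5) at the high dose, with -0.4 at the low and -0.47 at the medium dose. Abhd14b read 0.76, 0.75, 0.53, 0.86 and 0.27 in the controls and -1.08 to -0.19 (median -0.36) at the high dose, with -0.27 and -0.5. Neither gene had overlapping groups, which the rule for naming them required after slide adjustment. The brighter probe of Etfa changed by -0.5 and was not called. Plce1 varied with the processing, from -0.26 to -1.5 over 35 settings, and Amer1 passed in 22 of them. Sh2d4a ran from -2.17 to -0.42.

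Between the high and the low dose, each slide holding both groups, 86 of 33098 probes were called (0.26%), for 74 genes. They comprised 14 increases and 72 decreases with dose. Of these 82 were also called against control in the same direction. The count rested on the low dose arrays used: without low dose replicate 1 it was 200, and with a replicate block in place of the slide it was 178, while median centring gave 4. The median shift from the controls of slide 1, in the direction of the call, was taken over the probes called at the high dose. It was 0.73 and 0.44 for low dose replicates 1 and 2, and 0.79 and 0.62 for medium dose replicates 1 and 2. High dose replicates 1 and 2 were at 0.85 and 0.84. On other slides low dose arrays were at 0.46 to 0.61. Low dose replicate 1 thus lay above medium dose replicate 2 on its slide. Between arrays of the same number on that slide, low lay below medium and medium below high. Whether the labels of these arrays are right was not settled, and without both the count was 211. Leaving out slide 1, 3 or 5 gave 42, 11 and 41.

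Higher than at the low dose were Angptl6 (by 1.15, limma adjusted p = 0.0101), the transcript U90926 (0.88), Btbd11 (0.88) and Itga6 (0.87). From low to medium to high dose, Angptl6 stood at 1.08, 1.66 and 2.24 above control and Itga6 at 0.05, 0.58 and 0.92. Ddit3 was also higher, by 0.62 (limma adjusted p = 0.0146). U90926 exceeded background clearly on 3 of 5 control arrays, and Nrep on 3 of 6 high dose arrays. Lower were Mgp (-2.17), Pdgfrl, a receptor-like protein (-1.63, limma adjusted p = 2.23e-05), Nrep (-1.36), Hmgcs1 (-1.34) and the matricellular Smoc2 (-1.28). Pdgfrl stood at -0.56, -1.26 and -2.19 against control. Hmgcs1 was at 0.1 at the low, -0.88 at the medium and -1.24 at the high dose. Tgfb3 (-0.99, limma adjusted p = 9.89e-06), Tgfb2 (-0.98), Cp (-1.18) and Col3a1 (-0.87) were lower than at the low dose as well.

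**Figure D4:**
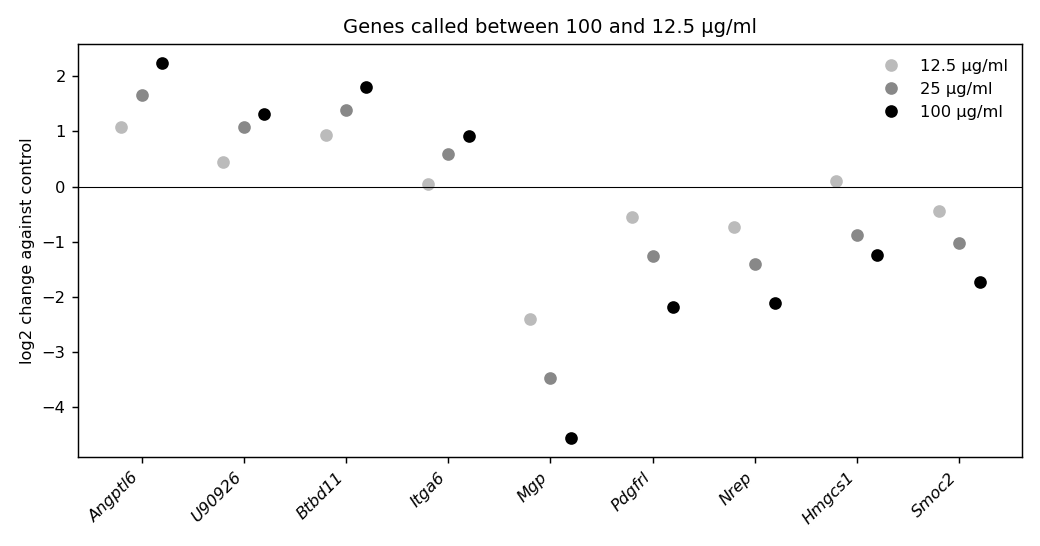
Log2 change against control at 12.5, 25 and 100 µg/ml for 4 of the 5 largest increases and the 5 largest decreases between the high and the low dose. Each gene is most changed at 100 µg/ml, and Hmgcs1 is at 0.1 at 12.5 µg/ml and -1.24 at 100 µg/ml. The 3 changes of a gene share the control arrays.

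Between the high and the medium dose limma called 0 probes. Of all 55681 probes 2330 had an unadjusted p under 0.05, no more than that threshold lets through without any difference. The smallest adjusted p was 0.26, that of Tgfb3. An ordinary linear model called 0 and the Cy5 signal alone 1.

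For 7 genes with a symbol the probe was well above background on every array of 1 group and on none of the other, so that a fold can only be a bound. Sprr2h, a small proline-rich protein of the cornified envelope, was at least 4.22-fold higher at the high dose (limma adjusted p = 3.21e-06) and Tcim at least 1.69-fold. Dtna was also called higher (limma adjusted p = 0.00615), with no fold given because the bound from Cy5 alone exceeded the change of its ratio. Angptl7 was at least 4.57-fold lower (limma adjusted p = 2.22e-07), the glutamate transporter Slc1a3 at least 3.08-fold, Abca9 at least 2.84-fold and the fourth ID gene, Id4, at least 2.59-fold. Angptl7 read 0.29, 0.76, 0.16, -0.27 and -0.08 in the controls and -3.01 to -1.99 (median -2.14) at the high dose. Bounds come from each channel apart, with no dye swap, and are open to dye bias.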

How the data were processed

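The comparison uses 11 arrays (5 control, 6 high dose) of the 22 in the series, with 1 sample on each. The deposited scanner files hold a median pixel intensity per spot and colour, which the authors extracted without normalisation (Feature Extraction 10.7.3.1 at 3 µm, per the file headers). Per the file headers, the scanner software added a log10 ratio and marks for outliers and signal above background. A value table from the authors holds log2 ratios, normalised in a way the sources used here do not give, and served as an alternative.

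Control spots were left out and spots marked as outliers were set to missing. Background was not subtracted, log2(Cy5/Cy3) was normalised by loess within each array, and spots of a probe were combined by the median. Detection meant Cy5 signal above the 5% trimmed mean plus 3 trimmed SDs of 308 negative controls. Between 23688 and 39139 of 55681 probes were detected per array. Symbols came from accessions matched to a GRCm38.p6 name table (26413 probes, 20018 genes).

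One model over 22 arrays with group and slide was fitted with limma 3.58.1 in R 4.3.3, in place of the study's shrinkage test, with Benjamini-Hochberg adjustment over all probes. Slides coincided with scan days. Same-numbered control and high dose arrays deviated together (correlations 0.81, 0.49, 0.49, 0.48 and 0.48), and 4 of these 5 shared a slide, so the numbers were taken as pairs and a replicate block was tried.

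Genes were named by rule: the 12 largest changes each way among called probes with a symbol, detection on 4 or more arrays in control and in high dose, and no overlap after slide adjustment, 8 among those called at the high dose alone, 5 between high and low dose, the largest bounds, and in each list the 4 largest called changes, the largest called against the list, and the member of highest signal. Any other named gene was chosen after its values were seen. Members, lists and rules were chosen with earlier results of these data known. The script was checked on simulated data. Some genes that the rule names are not reported here.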

Additional observations from a re-analysis of the deposited data

Results flagged for a closer look

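Among 354 groups of 4 to 6 arrays of the named genes, 21 held an array whose gap to the others passed Dixon's 95% limit, and chance marks about 1 in 20. In the controls these were replicate 4 for Prl2c1 (-0.65) and Itga6 (-4), replicate 1 for Stard4 (2.27), Insig1 (1.48), Calr (-0.24), Il1r1 (0.02), Uap1l1 (-2.65) and Pdgfrl (0.64), replicate 2 for Txnrd1 (0.65), and replicate 5 for Sqle (2.37), Sparc (1.2) and Cxcl17 (1.85). At the high dose they were replicate 3 for Klf4 (1.58), Dusp16 (0.47), Amer1 (-0.99) and Angptl7 (-3.01), replicate 6 for F3 (1.71) and Il18 (-0.34), replicate 4 for Scd2 (0.73), and replicate 1 for Elovl6 (1.54) and Ddx58 (-0.25). All values are log2 ratios of sample to reference.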

How the results depend on the processing

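Of 166 called genes named in the text, 110 were called under all 34 alternatives and 0 turned direction. Actb, never called, was 0.05 and turned to -0.02 with median centring, -0.09 with the scanner log ratio, -0.05 without the slide term, -0.02 with slide as a random block, -0.01 with the replicate block, -0.11 without control replicate 4, -0.02 without control replicate 5, -0.03 without high dose replicate 1 (0.26 without high dose replicate 4) and -0.03 without slide 4. The 2448 calls became 1314 with median centring, 4498 with no fold threshold and 714 at 2-fold, and 2148 to 2521 when single arrays were left out. The 838 calls at the high dose alone became 1595 with no fold threshold and 272 at 2-fold, and 714 to 926 without single arrays. The 86 calls between high and low became 4 with median centring, 35 with the series matrix, 40 with only these groups in the model, 27 without the slide term, 34 with an ordinary linear model, 163 with no fold threshold, 11 at 2-fold, 42 without slide 1, 11 without slide 3 and 41 without slide 5. They were 200 without low dose replicate 1, 211 without that array and medium dose replicate 2, and 41 to 104 without single control or high dose arrays. Between high and medium, Cy5 alone called 1, and leaving out arrays gave 0 to 0. Of the list genes, 206 were called with median centring and 152 at 2-fold, and 296 to 323 without single arrays. Under a replicate block that took the place of the slide, 2804 probes were called, 953 of them at the high dose alone, and 178 between high and low. The cause of these differences was not tested, apart from the fold thresholds, which set the counts directly. Over all settings Id2 ran from -2.75 to -1.32, Nrep from -3.35 to -1.69, Fmod from -2.18 to -0.92 and Ifit1 from 1.73 to 3.74. Signal near background limits the lowest control values of genes such as Ifit1, whose probe was well above it on 1 control array.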
